A study of Rattus norvegicus with 27 samples.

Results

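Messenger RNA of cultured rat Schwann cells was compared between cells differentiated with dibutyryl cyclic AMP (dbcAMP) and cells kept without it. Members were chosen by the stage and the library code in the column names of the cell mRNA table, which gave 3 differentiated and 3 undifferentiated libraries, 6 of the 27 libraries of the series and 6 of its 9 cell mRNA libraries. The cells were commercial primary rat Schwann cells at passages 3 to 5. According to the labels, the plated cells first spent time in growth medium and then in a complete medium with serum, forskolin (an activator of adenylyl cyclase) and neuregulin, and were starved overnight in low serum before treatment. Differentiated cells then received 1 mM dbcAMP, a membrane-permeable cyclic AMP analogue, for 72 h in a basal medium with 1% fetal bovine serum. Undifferentiated cells are described only as kept without such agents, so their serum, forskolin and neuregulin during those 72 h are not known, and the effect of dbcAMP cannot be told apart from that of the medium. The cultures held no axons, and the donors or cell lots behind the replicates are not named. The p-values below therefore measure the spread between these cultures.

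Schwann cells wrap the axons of peripheral nerves. In the nerve, axonal signals raise cyclic AMP in the Schwann cell and neuregulin engages its ErbB receptors, and together they induce the transcription factors Pou3f1 and Egr2, which with Sox10 switch on the genes of myelin proteins and lipids. After injury the same cells lose myelin genes and take up a repair state that depends on Jun and secretes neurotrophic factors. Cyclic AMP analogues are used in culture to drive cells without axons along the first path, and in rat Schwann cells cyclic AMP is also known to promote proliferation together with growth factors.

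Libraries held 10401572 to 16212282 estimated counts and 11278 to 11812 detected genes, and 3 counts corresponded to 0.185 to 0.288 CPM (counts scaled to a common library size and composition). Log2 CPM correlated at 0.975 to 0.990 within stages and 0.831 to 0.852 between them. One library stood apart: in undifferentiated replicate 1, 352 genes were more than 2-fold below both other undifferentiated libraries, against 16 to 126 genes for the other 5 libraries, and without it 6049 genes were called by the rule given below, 5684 of them also with all libraries. Genes and lists said below to be lowest in it are also given without it. Replicate 3 of each stage came from another sequencing project, and a fit with the project as a covariate called 6059 genes. Ribosomal protein genes took 2.96% ± 0.0505 of counts in undifferentiated and 3.70% ± 0.185 in differentiated libraries (SD, n = 3; exact permutation p = 0.1, two-sided, the smallest that 3 against 3 allows). The Schwann label was checked against 7 lineage markers, whose summed level was 7513 to 9010 CPM in undifferentiated and 5602 to 6275 CPM in differentiated libraries. Among them *S100b* and *Erbb3* rose, and *Sox10*, *Ngfr*, *Cdh19* and *Gfra3* fell. Some listed markers of other cells were at 0 in all 6 libraries, and those named next were picked by that value. They were *Lum* and *Dpt* of fibroblasts, *Aif1*, *C1qa*, *C1qb* and *Adgre1* of macrophages, and *Cdh5* and *Emcn* of endothelium. The same held for *Rgs5* and *Kcnj8* of pericytes, *Stmn2* of neurons and *Olig2* and *Mobp* of oligodendrocytes. Other markers of those cells did move with the stage: the pericyte list summed to 2158 to 2363 CPM in undifferentiated and 2971 to 3841 CPM in differentiated libraries through *Mcam* and *Pdgfrb*. The neuronal list summed to 238 to 623 and 1435 to 1976 CPM through *Nefl* and *Nefm*, while *Tubb3* changed by -0.66 in log2 (edgeR adjusted p = 0.0141), and the perineurial list to 144 to 188 and 235 to 326 CPM through *Itgb4*, while *Ntn4* changed by -1.91 (edgeR adjusted p = 0.00198). The endothelial list summed to 11.2 to 11.6 and 9.21 to 11.9 CPM, with *Vwf*, *Tek* and *Flt1* called higher and *Egfl7* lower. The oligodendrocyte list summed to 1.70 to 1.88 and 2.82 to 3.61 CPM, with *Cldn11* called higher. The part of these markers in the results was not tested.

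Genes were tested with edgeR's quasi-likelihood test and called at an adjusted p under 0.05. Of 10372 genes tested, 59.6% were called, and differentiated cells were the higher stage for 31.7% and the lower for 27.9%, so that a list of genes has to be read against a background in which most genes moved. Where a list below moved in both directions, its counts are a description and are not set apart from these shares. Most of these changes were small: 58.4% of the called genes changed by less than 2-fold, and the median log2 change of all tested genes was 0.05. At the other end, 229 genes rose and 123 fell by more than 16-fold in the fit, and 96 rose and 42 fell by more than 64-fold. Of the called genes, 98 that rose were under 3 counts in every undifferentiated library and 50 that fell were under 3 counts in every differentiated library, and the fitted fold of such a gene is not a bound. In bulk libraries, fewer cells with a transcript and less of it per cell cannot be told apart. The histogram of changes shows both tails, and the plot of gene lists shows where the members of each list lay.

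**Figure D1:**
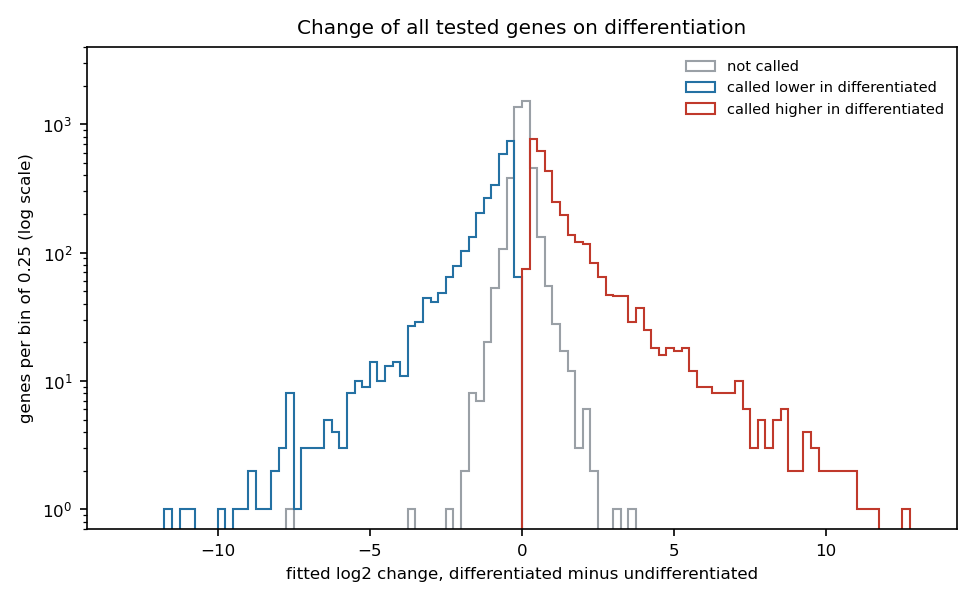
Number of genes (log scale) against the fitted log2 change between differentiated and undifferentiated cells for 10372 tested genes, drawn as outlines for genes called higher, called lower and not called. The tail of higher genes is longer, with 96 genes called above 64-fold against 42 below.

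**Figure D2:**
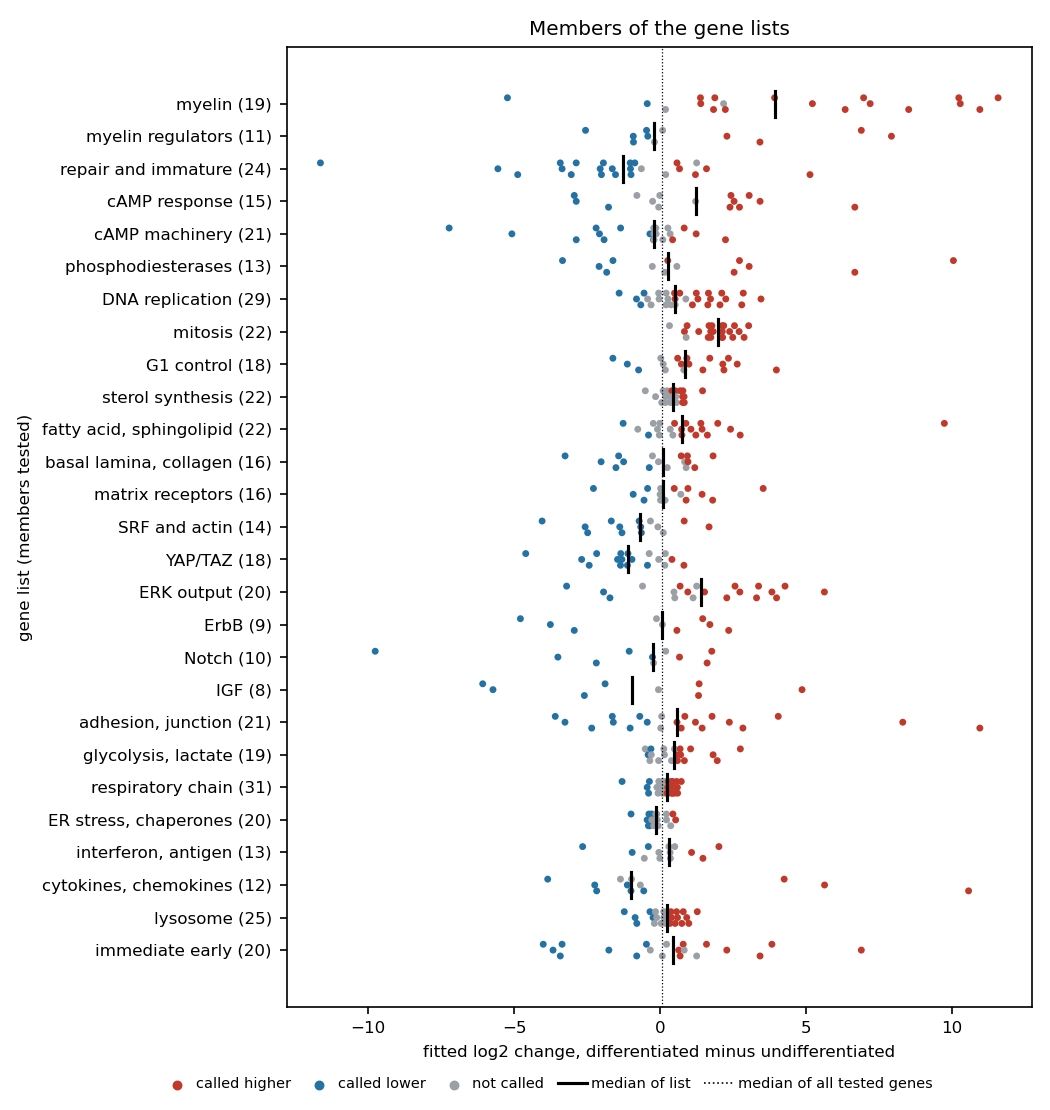
Fitted log2 change of each tested member (points, coloured by call) for 27 gene lists, with each list's median as a bar and the median of all tested genes as a dotted line. The myelin list has its median at 3.93, and mitosis genes lie on the higher side, while repair, actin and YAP/TAZ genes lie mostly on the lower side; points far from 0 include genes under 3 counts in a whole stage.

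Structural genes of myelin were among the largest increases. Of 19 genes tested, 15 rose, 2 fell and 2 were not called, with a median log2 change of 3.93 against 0.05 over all tested genes. The 2 members under 3 counts in every undifferentiated library, *Gjb1* and *Drp2*, have lower bounds of 184-fold and 93.8-fold. The median was the same with these bounds, but both lie above it, so they could not move it. The median was 5.41 without undifferentiated replicate 2 and 1.87 with at least 10 counts required in every library. *Mbp*, whose protein joins the cytoplasmic faces of the membrane, was already expressed before treatment and measured 261, 158 and 132 CPM in undifferentiated replicates 1, 2 and 3 and 4256, 2215 and 1886 CPM in differentiated replicates 1, 2 and 3, a log2 fold change of 3.93 ± 0.41 (SE; adjusted p = 1.34e-05, edgeR). All values that follow are in this order. Every differentiated library lay above every undifferentiated one, and differentiated replicate 1 was the highest. Replicate 1 was also the highest of its stage for the summed list, at 29549 CPM against 19279 and 20483 CPM, and undifferentiated libraries summed to 6942, 7628 and 7341 CPM.

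Some members changed more than *Mbp* and some less. *Mal*, a proteolipid of compact myelin, had the largest fitted change of the list, from 0.340, 0.197 and 0.0653 CPM to 797, 465 and 569 CPM, a log2 fold change of 11.59 ± 0.44 (SE; adjusted p = 1.05e-08, edgeR), or 12.22 without undifferentiated replicate 1. *Prx*, the scaffold periaxin, went from 18.8, 26.0 and 30.7 CPM to 4636, 3164 and 3336 CPM, a log2 fold change of 7.20 ± 0.32 (SE; adjusted p = 2.55e-08, edgeR). *Drp2*, its partner in the dystroglycan complex, was at 0.170, 0 and 0 CPM before and 37.2, 12.8 and 20.1 CPM after. Where a stage held so few counts, the ratio of summed counts is given with its exact (Clopper-Pearson) 95% interval, which covers counting error only, and for *Drp2* it was 432-fold (counting interval 119 to 3569). *Cldn19*, a tight junction protein, rose from 0.255, 0.0987 and 0.457 CPM to 791, 502 and 526 CPM, a log2 fold change of 10.96 ± 0.43 (SE; adjusted p = 1.28e-08, edgeR). *Drp2* and *Cldn19* were under 1 CPM in every undifferentiated library and *Prx* was not. Without undifferentiated replicate 3, *Cldn19* changed by 11.62 in log2. *Gjb1*, the gap junction protein connexin 32, had 1 count in all undifferentiated libraries together and then measured 61.3, 36.8 and 39.5 CPM, a ratio of 1692-fold (counting interval 303 to 66880.0). *Mag*, an adhesion molecule facing the axon, measured 0.764, 6.32 and 5.35 and then 550.4, 186 and 277 CPM, a log2 fold change of 6.35 ± 0.58 (SE; adjusted p = 4.77e-06, edgeR). *Pmp2*, a lipid-binding myelin protein, measured 4.76, 12.7 and 17.6 and then 2002, 1168 and 1313 CPM, a log2 fold change of 6.98 ± 0.42 (SE; adjusted p = 2.19e-07, edgeR). Undifferentiated replicate 1 was the lowest library for both, and without it *Mag* changed by 5.87 and *Pmp2* by 6.60 in log2. The lipid enzymes *Ugt8*, which makes galactocerebroside, and *Fa2h*, which hydroxylates its fatty acids, rose by 2.24 and 5.22, and *Bcas1* rose by 10.24 from 0.391 CPM (all in log2; edgeR adjusted p of 7.64e-06, 4.07e-06 and 2.64e-09).

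Some members did not rise. *Cnp*, an enzyme of the noncompact cytoplasm, measured 2149, 2098 and 2029.6 CPM and 2593, 2283 and 2269 CPM and was not called (log2 change 0.19; edgeR adjusted p = 0.0925), although its 3 differentiated libraries lay above the others, and it was called with library sizes alone as the scaling (log2 change 0.25; edgeR adjusted p = 0.0224). *Cadm4*, a glial adhesion molecule that binds axonal partners along the internode, fell from 2357, 2320.0 and 2281 to 1777, 1541 and 1809 CPM, a log2 fold change of -0.44 ± 0.09 (SE; adjusted p = 0.0018, edgeR). *Tspan2*, a tetraspanin of myelinating glia, fell from 7.73, 11.7 and 10.2 to 0.295, 0.301 and 0.180 CPM, a log2 fold change of -5.23 ± 0.32 (SE; adjusted p = 2.71e-07, edgeR). The stages did not overlap for either of the 2 genes that fell. The count of rising members depended on low-count genes: with at least 10 counts required in every library, 8 rose, since genes near absent before treatment are then not tested.

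Transcription factors of the myelin program split. *Pou3f1* (Oct6), an inducer, rose from 3.57, 8.29 and 6.66 to 1712, 1504 and 1289 CPM, a log2 fold change of 7.93 ± 0.28 (SE; adjusted p = 6.35e-09, edgeR). *Egr2* (Krox20), the factor required for myelination, rose from 1.44, 14.4 and 2.61 to 647, 781 and 645 CPM, a log2 fold change of 6.90 ± 0.61 (SE; adjusted p = 4.09e-06, edgeR). *Pou3f2*, which overlaps Pou3f1 in function, rose by 2.29, and *Nab2*, a corepressor that binds Egr proteins, by 3.42 (both log2; edgeR adjusted p of 2.87e-06 and 0.000592). Differentiated libraries lay close together for *Egr2* and *Pou3f1*, while undifferentiated libraries differed among themselves, with replicate 2 the highest. Without that library *Egr2* changed by 8.33 in log2, and without undifferentiated replicate 1 *Nab2* changed by 5.01.

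Some of the factors that act with them fell. *Sox10*, the lineage factor that binds myelin genes with Egr2, measured 1559, 1319 and 1249 and 1060.4, 1084 and 938 CPM, a log2 fold change of -0.42 ± 0.11 (SE; adjusted p = 0.00665, edgeR). *Nfatc4*, which works with Sox10 at *Egr2*, fell from 42.2, 41.8 and 38.6 to 7.07, 8.13 and 5.70 CPM, a log2 fold change of -2.56 ± 0.14 (SE; adjusted p = 9.61e-08, edgeR). *Zeb2*, a repressor of inhibitors of myelination, changed by -0.91, the corepressor *Nab1* by -0.92 and the deacetylase *Hdac1* by -0.46 in log2 (edgeR adjusted p of 1.02e-05, 0.00666 and 0.00112); some counts of *Hdac1* and of *Mbp* were fractional, which can arise where reads are shared with similar genes, so these values are uncertain. The stages did not overlap for any of these 5 genes. *Yy1* and *Hdac2* were not called, but *Hdac2* was called lower with the replicate number as a block (log2 change -0.19; edgeR adjusted p = 0.0466, 0.0608 without it). Of the 11 regulators tested 4 rose and 5 fell, with a median of -0.19.

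**Figure D3:**
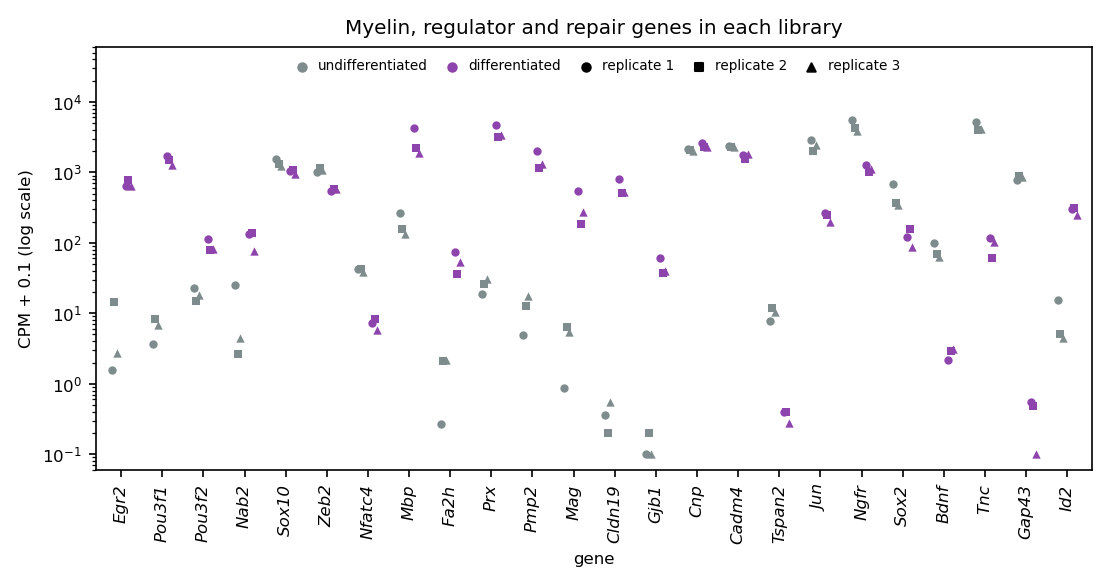
CPM plus 0.1 on a log axis for 24 myelin, regulator and repair genes in each of the 6 libraries, with colour for stage and marker shape for replicate. Egr2 and Pou3f1 sit above 600 CPM in all differentiated libraries, Sox10 and Cnp change by less than 2-fold, and Gap43 drops from above 700 CPM to below 1 CPM.

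Genes of the immature and repair states mostly fell. Of 24 tested, 16 fell, 5 rose and 3 were not called, against 27.9% lower and 31.7% higher over all tested genes. The median log2 change was -1.28. *Jun*, the transcription factor that drives the repair state, fell from 2919, 1986 and 2424 to 267, 252 and 196 CPM, a log2 fold change of -3.36 ± 0.17 (SE; adjusted p = 6.56e-08, edgeR). *Ngfr*, the p75 neurotrophin receptor of immature cells, fell from 5572, 4274 and 3809.7 to 1254, 1026 and 1109 CPM, a log2 fold change of -2.01 ± 0.14 (SE; adjusted p = 8.05e-07, edgeR). *Gap43*, a growth-associated protein, fell from 784, 889 and 857 to 0.442, 0.377 and 0 CPM, a log2 fold change of -11.64 ± 0.34 (SE; adjusted p = 2.86e-09, edgeR). Undifferentiated cells held over 700 CPM of each, and *Gap43* was under 1 CPM in all differentiated libraries, with a change of -10.97 without differentiated replicate 3, where it was at 0.

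Secreted trophic factors were among the genes that fell. *Bdnf* went from 101, 69.3 and 63.8 to 2.06, 2.79 and 3.00 CPM, a log2 fold change of -4.88 ± 0.23 (SE; adjusted p = 4.21e-08, edgeR). *Gdnf* changed by -2.88 and *Shh*, a ligand made by repair cells, by -0.87 in log2 (edgeR adjusted p of 1.86e-05 and 0.0107). *Artn* and *Lif* were also called lower but each lost its call in 4 of the 6 fits that leave out 1 library, for example at edgeR adjusted p = 0.0974 and 0.146 without undifferentiated replicate 3, and the *Artn* value of differentiated replicate 1, 2.51 CPM, lay within the undifferentiated range. *Tnc*, an extracellular matrix glycoprotein, fell from 5184, 3972 and 4095 to 118, 60.0 and 103 CPM, a log2 fold change of -5.56 ± 0.25 (SE; adjusted p = 2.75e-08, edgeR). The transcription factors *Sox2* and *Runx2* changed by -1.94 and -3.05, and *Atf3*, an injury-induced factor, by -3.42 (log2; edgeR adjusted p of 0.000124, 3.7e-07 and 7.64e-06).

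A pair of related inhibitors of differentiation moved apart. *Id2* rose from 15.2, 5.03 and 4.37 to 298, 316 and 247 CPM, a log2 fold change of 5.14 ± 0.38 (SE; adjusted p = 1.01e-06, edgeR). *Id3* fell from 239.5, 124 and 148 to 89.7, 92.9 and 69.7 CPM, a log2 fold change of -1.02 ± 0.23 (SE; adjusted p = 0.00312, edgeR). Undifferentiated replicate 1 was the highest of its stage for *Id2* and *Id3*, and the stages did not overlap for either; without that library *Id2* changed by 5.94. Among the other exceptions, *Notch1* rose by 0.67 and *Fos* by 1.59 (log2; edgeR adjusted p of 0.0026 and 0.00269). *Ncam1* and *Nrcam*, adhesion molecules of nonmyelinating cells, were called higher, but *Ncam1* was not called in 4 of the 6 fits without 1 library, for example without differentiated replicate 3 (log2 change 0.46 against 0.58; edgeR adjusted p = 0.108). *Nrcam* was not called in 3 of them, for example without differentiated replicate 1 (log2 change 0.75 against 1.21; edgeR adjusted p = 0.0704). *L1cam* moved the other way, by -1.64 (edgeR adjusted p = 1.07e-05). Without undifferentiated replicate 2, 3 genes of the list were called higher in place of 5.

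Cyclic AMP acts through protein kinase A and the transcription factor CREB, which binds the cyclic AMP response element (CRE), and is degraded by phosphodiesterases. Of 15 tested genes of a cyclic AMP response list, 7 rose and 3 fell, against 31.7% and 27.9% of all tested genes. Another 5 were not called, and the median log2 change of the list was 1.22. That median is the value of *Rgs2*, a regulator of G protein signalling, which was not called (edgeR adjusted p = 0.0611) except, among other fits, with the replicate block (edgeR adjusted p = 0.00979), and the median was 0.51 without differentiated replicate 2 and 1.70 without undifferentiated replicate 2. The 4 phosphodiesterases on that list rose, and *Pde4d*, which degrades cyclic AMP, went from 8.41, 6.22 and 6.98 to 60.3, 61.5 and 58.2 CPM, a log2 fold change of 3.05 ± 0.17 (SE; adjusted p = 1.12e-07, edgeR). *Nr4a1*, an orphan nuclear receptor, rose from 88.7, 138 and 76.8 to 421, 843 and 367 CPM, a log2 fold change of 2.43 ± 0.33 (SE; adjusted p = 0.000105, edgeR). Its relative *Nr4a2* rose by 2.40, by 1.71 without differentiated replicate 2. *Nr4a3* was not called (log2 change -0.79; edgeR adjusted p = 0.123) except with the replicate block, where it was lower (edgeR adjusted p = 0.0471). Other textbook targets overlapped between the stages 72 h after the start: *Crem* measured 37.8, 44.2 and 41.5 and 34.9, 43.8 and 40.6 CPM, *Per1* 106, 118 and 104 and 115, 125 and 85.5 CPM, and *Sik1* was not called either (edgeR adjusted p of 0.7, 0.95 and 0.685). *Dusp1*, a phosphatase of MAP kinases, fell from 22.0, 39.4 and 21.1 to 11.0, 5.87 and 7.26 CPM, a log2 fold change of -1.77 ± 0.29 (SE; adjusted p = 0.000376, edgeR). *Areg*, an ErbB ligand, fell from 1.44, 5.03 and 2.87 to 0.368, 0.527 and 0.300 CPM, a log2 fold change of -2.94 ± 0.60 (SE; adjusted p = 0.00156, edgeR). The stages did not overlap for these 2 genes. *Nfil3* changed by -2.87 (edgeR adjusted p = 0.000605), and by -3.95 without differentiated replicate 2.

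The sequences of 4 promoters are shown because these genes hold a full CRE and moved in opposite directions. A full CRE, TGACGTCA, which reads the same on both strands, lay in 1.83% of all 33469 RefSeq promoters of the rat build GRCr8, each 300 bases long. Among the promoters of tested genes the full CRE lay in 3.49%. *Epha2* and *Mcm5* rose and were taken by a rule for called genes that hold it, which also took *Ahi1* and *Tmem59l*. *Dusp1* and *Areg* are the members of the cyclic AMP response list that hold it and fell, chosen after their values were seen. Each line gives the 250 bases before the RefSeq start, 5′ to 3′, with the CRE in capitals.
*Epha2*, chr5:158888379-158888628, plus strand: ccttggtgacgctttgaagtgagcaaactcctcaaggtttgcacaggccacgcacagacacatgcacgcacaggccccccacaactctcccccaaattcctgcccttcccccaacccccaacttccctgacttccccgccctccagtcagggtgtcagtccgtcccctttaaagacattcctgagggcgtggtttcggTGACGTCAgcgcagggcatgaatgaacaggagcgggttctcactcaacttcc
*Mcm5*, chr19:13488563-13488812, plus strand: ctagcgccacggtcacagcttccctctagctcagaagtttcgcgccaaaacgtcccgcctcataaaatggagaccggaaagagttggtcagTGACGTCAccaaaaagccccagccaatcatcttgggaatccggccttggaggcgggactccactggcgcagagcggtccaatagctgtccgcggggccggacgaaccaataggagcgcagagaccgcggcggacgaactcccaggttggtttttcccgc
*Dusp1*, chr10:17184603-17184852, plus strand: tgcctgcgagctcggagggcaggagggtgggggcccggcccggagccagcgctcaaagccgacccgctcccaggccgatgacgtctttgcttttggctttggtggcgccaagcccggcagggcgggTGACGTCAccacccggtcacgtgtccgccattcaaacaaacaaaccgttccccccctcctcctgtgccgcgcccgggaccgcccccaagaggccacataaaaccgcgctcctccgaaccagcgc
*Areg*, chr14:17265642-17265891, minus strand: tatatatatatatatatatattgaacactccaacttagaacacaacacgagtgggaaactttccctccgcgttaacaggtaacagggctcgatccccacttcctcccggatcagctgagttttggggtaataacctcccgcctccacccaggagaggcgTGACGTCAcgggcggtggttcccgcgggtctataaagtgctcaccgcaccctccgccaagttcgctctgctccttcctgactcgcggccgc
The CRE began 52 bases before the start of *Epha2*, 159 before *Mcm5*, 124 before *Dusp1* and 91 before *Areg*. Of the 20 genes of the cyclic AMP response list, 14 had a promoter in the RefSeq table. Among these, *Fosb*, *Nr4a1* and *Nr4a2*, which rose, did not hold the full CRE. The shorter motif TGACG, on either strand, lay in the promoters of *Nr4a1* and *Nr4a2* but not of *Fosb*. It also lay in that of *Nfil3*, which fell and did not hold the full CRE. A promoter was found for 78.2% of tested genes, so shares with the motif among genes that rose or fell are not compared. A match describes these letters and not a bound site.

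Phosphodiesterase genes moved in both directions. Of 13 tested, 6 rose, 4 fell and 3 were not called. *Pde3a* was at 0 in all undifferentiated libraries and at 10.2, 11.1 and 9.67 CPM in differentiated ones, at least 41.4-fold higher against a floor of 3 counts per library. *Pde10a* rose from 17.1, 14.4 and 18.1 to 107, 122 and 100.0 CPM, a log2 fold change of 2.72 ± 0.12 (SE; adjusted p = 3.19e-08, edgeR). *Pde1c*, a calcium-dependent enzyme, fell from 123, 153 and 141 to 13.1, 12.9 and 14.8 CPM, a log2 fold change of -3.34 ± 0.11 (SE; adjusted p = 4.16e-09, edgeR). The stages were far apart for these 3 genes, with little spread within a stage. *Pde7b* and *Pde7a*, close relatives, moved in opposite directions, by 6.68 and -2.09 in log2 (edgeR adjusted p of 1.82e-09 and 2.53e-05). *Pde5a* changed by -1.62, *Pde4b* by 2.54 and *Pde2a* by -1.83, or -2.80 without differentiated replicate 3. *Pde6d* was called higher but not without undifferentiated replicate 1, undifferentiated replicate 3 or differentiated replicate 2 (edgeR adjusted p of 0.0597, 0.0769 and 0.0533).

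Adenylyl cyclases, the enzymes that make cyclic AMP, moved in both directions as well. *Adcy5* fell from 286, 296 and 279 to 30.1, 40.4 and 46.8 CPM, a log2 fold change of -2.87 ± 0.14 (SE; adjusted p = 4.78e-08, edgeR). *Adcy8* fell from 25.3, 15.2 and 15.5 to 0.147, 0 and 0.180 CPM, a log2 fold change of -7.23 ± 0.58 (SE; adjusted p = 1.95e-06, edgeR). *Adcy6* rose from 249, 268 and 234 to 481, 427 and 423 CPM, a log2 fold change of 0.83 ± 0.08 (SE; adjusted p = 1.02e-05, edgeR). *Adcy1* and *Adcy3* rose by 1.24 and 2.24. Of the regulatory subunits of protein kinase A, *Prkar2b* changed by -1.92 and *Prkar1a* by 0.43 (edgeR adjusted p of 0.000138 and 0.000626). The anchoring proteins *Akap6* and *Akap12* changed by -5.08 and -2.19 (edgeR adjusted p of 7.86e-09 and 2.38e-05), and *Creb1* was not called. Of 21 genes of the machinery, 4 rose and 9 fell, with a median of -0.21.

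Genes known as transcriptional output of the kinase ERK mostly rose. Of 20 tested, 12 rose, 3 fell and 5 were not called, against 31.7% higher and 27.9% lower over all tested genes. The median was 1.39, or 2.12 without undifferentiated replicate 2 and 1.21 without undifferentiated replicate 1. *Dusp6*, a feedback phosphatase of ERK, measured 1.44, 58.2 and 36.8 and 255, 393 and 302 CPM, a log2 fold change of 3.31 ± 0.74 (SE; adjusted p = 0.00281, edgeR). *Etv5*, an ETS transcription factor induced by ERK, measured 9.09, 13.6 and 22.7 and 113, 84.4 and 109 CPM, a log2 fold change of 2.73 ± 0.32 (SE; adjusted p = 3.46e-05, edgeR). *Epha2*, a receptor tyrosine kinase whose promoter is printed above, measured 3.40, 15.7 and 14.6 and 108, 116 and 126 CPM, a log2 fold change of 3.38 ± 0.37 (SE; adjusted p = 1.81e-05, edgeR). In each case undifferentiated replicate 1 was the lowest of the 6 libraries. *Dusp4*, *Etv1*, *Etv4*, *Phlda1* and *Myc* also rose, by 5.63, 3.99, 4.28, 2.57 and 2.29, with the same library lowest in each. Without undifferentiated replicate 1 the changes of *Etv5*, *Etv1*, *Etv4*, *Phlda1* and *Myc* were 2.47, 3.65, 3.72, 2.06 and 1.96, all still called. In the same fit the changes of *Dusp6*, *Dusp4* and *Epha2* were 2.75, 5.14 and 2.95 (edgeR adjusted p of 6.29e-05, 9.76e-09 and 5.48e-08), and 11 genes of the list were called higher. Other libraries moved single values too: without undifferentiated replicate 2, *Dusp6* changed by 3.97 and *Myc* by 2.89, and without undifferentiated replicate 3, *Etv4* changed by 5.18.

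Members of the same feedback families moved apart. *Dusp5*, a nuclear phosphatase of ERK, fell from 9.60, 16.8 and 9.99 to 3.68, 5.05 and 2.34 CPM, a log2 fold change of -1.72 ± 0.31 (SE; adjusted p = 0.000659, edgeR). *Spry2*, an inhibitor of receptor signalling, fell from 119, 292 and 162 to 23.9, 88.9 and 36.8 CPM, a log2 fold change of -1.94 ± 0.44 (SE; adjusted p = 0.00317, edgeR), and by -2.64 without differentiated replicate 2. *Epha4* fell from 52.0, 86.4 and 55.8 to 6.26, 6.93 and 7.74 CPM, a log2 fold change of -3.20 ± 0.27 (SE; adjusted p = 2.52e-06, edgeR). The stages did not overlap for any of the 3 genes that fell. *Spry4* measured 0.425, 13.5 and 10.5 and then 15.3, 21.1 and 17.1 CPM, did not overlap between stages, was not called (edgeR adjusted p = 0.151), and was called with the replicate block (edgeR adjusted p = 0.0432).

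Immediate early genes, which respond within minutes to many stimuli, were mixed 72 h after the start. Of 20 tested, 8 rose, 7 fell and 5 were not called. *Egr3* measured 1.53, 10.9 and 1.04 and 25.4, 119 and 35.1 CPM, a log2 fold change of 3.83 ± 0.79 (SE; adjusted p = 0.00163, edgeR). *Fosb* measured 1.27, 3.85 and 0.718 and 7.37, 45.1 and 7.44 CPM, a log2 fold change of 3.43 ± 0.81 (SE; adjusted p = 0.00382, edgeR), and the change was 1.98 without differentiated replicate 2 (edgeR adjusted p = 0.0144) and 4.31 without undifferentiated replicate 2. Without the same libraries *Egr3* changed by 2.83 and 5.52. Differentiated replicate 2 was the highest library for *Egr3*, *Fosb*, *Fos*, *Egr1* and *Nr4a1*, and *Egr1* overlapped between stages and was not called. *Fosl2* fell from 244, 165 and 143 to 7.88, 16.0 and 10.5 CPM, a log2 fold change of -4.01 ± 0.26 (SE; adjusted p = 4.22e-07, edgeR). *Klf2* and *Klf6*, Krüppel-like factors, changed by -3.67 and -1.76 (edgeR adjusted p of 1.65e-05 and 0.000161). *Junb*, *Ier2* and *Ier3* were called higher, but not without differentiated replicate 2 (edgeR adjusted p of 0.0811, 0.149 and 0.075) nor without undifferentiated replicate 3 (edgeR adjusted p of 0.0678, 0.111 and 0.11), and in each of these fits 5 genes of the list were called higher. *Ier5* was called lower, but not without differentiated replicate 1 (edgeR adjusted p = 0.0694), differentiated replicate 3 or undifferentiated replicate 1.

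**Figure D4:**
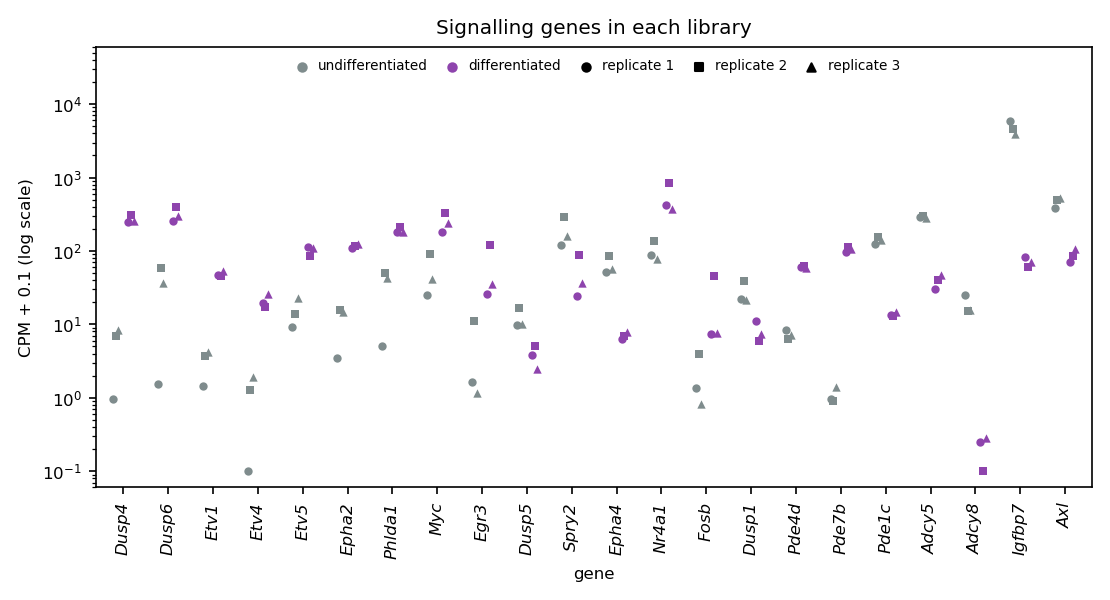
CPM plus 0.1 on a log axis for 22 genes of ERK, cyclic AMP and other signalling in each of the 6 libraries, with colour for stage and marker shape for replicate. Undifferentiated replicate 1 lies lowest for Dusp6 and Epha2, and Pde1c, Adcy5, Igfbp7 and Axl lie lower in all differentiated libraries.

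The ErbB receptors and ligands did not move as one. *Erbb3*, the neuregulin receptor of Schwann cells, rose from 854, 803 and 829 to 1267, 1273 and 1168 CPM, a log2 fold change of 0.58 ± 0.08 (SE; adjusted p = 9.89e-05, edgeR), and its partner *Erbb2* was not called. *Hbegf*, a ligand of the EGF receptor, rose from 19.3, 24.3 and 20.6 to 77.2, 63.0 and 68.8 CPM, a log2 fold change of 1.71 ± 0.12 (SE; adjusted p = 5.67e-07, edgeR). *Btc*, another such ligand, fell from 62.2 ± 12.1 to 4.57 ± 1.43 CPM (mean ± SD, n = 3 libraries each), a log2 fold change of -3.76 ± 0.21 (SE; adjusted p = 1.46e-07, edgeR). *Nrg1* rose by 2.35 to between 6.02 and 8.52 CPM (edgeR adjusted p = 0.00764), *Nrg2* changed by -4.79, or -7.74 without differentiated replicate 3, *Areg* fell as given above, and *Tgfa* was not called. Of 9 tested members 4 rose and 3 fell.

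Genes of cell division rose in the same libraries in which myelin genes rose. Of 22 mitosis genes tested, 20 rose and 0 fell, against 31.7% and 27.9% of all tested genes, with a median log2 change of 1.97. That median was 1.53 without undifferentiated replicate 1, 2.65 without undifferentiated replicate 3 and 1.34 with at least 10 counts in every library. Of 29 DNA replication genes 15 rose and 4 fell, with a median of 0.52. *Mki67*, a marker of dividing cells, measured 0.340, 7.70 and 16.0 and 22.6, 57.1 and 81.9 CPM, a log2 fold change of 2.71 ± 0.71 (SE; adjusted p = 0.00692, edgeR). *Top2a*, a topoisomerase of dividing cells, measured 0.255, 6.22 and 10.6 and 23.1, 47.6 and 72.9 CPM, a log2 fold change of 3.04 ± 0.68 (SE; adjusted p = 0.00274, edgeR). The summed level of the mitosis list was 34.6, 87.5 and 135 CPM in undifferentiated and 189, 346 and 489 CPM in differentiated libraries. Replicate 1 was the lowest and replicate 3 the highest of each stage, and undifferentiated replicate 3 was below differentiated replicate 1. Without undifferentiated replicate 3, *Mki67* changed by 3.80 and *Top2a* by 3.94. Over the alternative fits that tested *Mki67*, its change was at least 2.16, and it was called in each. Without undifferentiated replicate 1, 19 mitosis and 14 replication genes were called higher, and without differentiated replicate 3 it was 16 and 11. With at least 10 counts in every library, 7 mitosis and 8 replication genes were called higher.

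Replication genes moved in both directions. *Mcm5*, a subunit of the replicative helicase with a CRE in the promoter printed above, went from 0.425, 3.26 and 3.52 to 10.0, 18.5 and 22.3 CPM, a log2 fold change of 2.80 ± 0.50 (SE; adjusted p = 0.000645, edgeR). *Rrm2*, which makes deoxynucleotides, went from 0.509, 8.39 and 13.1 to 28.6, 53.4 and 79.8 CPM, a log2 fold change of 2.85 ± 0.68 (SE; adjusted p = 0.00412, edgeR). *Pcna*, the sliding clamp, rose from 57.2, 56.2 and 53.5 to 85.1, 87.5 and 93.9 CPM, a log2 fold change of 0.68 ± 0.08 (SE; adjusted p = 2.79e-05, edgeR). Undifferentiated replicate 1 was the lowest for *Mcm5* and *Rrm2* but not for *Pcna*. Without it *Mcm5* changed by 2.32 and *Rrm2* by 2.31, both still called, and without undifferentiated replicate 3 *Rrm2* changed by 3.65. *Cdt1*, which licenses origins, fell from 29.5, 23.7 and 24.9 to 7.59, 7.76 and 13.9 CPM, a log2 fold change of -1.40 ± 0.23 (SE; adjusted p = 0.000335, edgeR). *Lig1*, *Prim1* and *Gins4* changed by -0.55, -0.66 and -0.81, and *Mcm6* and *Rrm1* were not called.

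Cyclins and inhibitors of cyclin-dependent kinases rose in the same libraries. *Ccnd1*, the cyclin of G1 entry, rose from 59.9, 137 and 177 to 2296, 1712 and 1943 CPM, a log2 fold change of 3.99 ± 0.33 (SE; adjusted p = 2.21e-06, edgeR). *Cdkn1b* (p27), an inhibitor that accumulates in arrested cells, rose from 132, 114 and 115 to 808, 753 and 696 CPM, a log2 fold change of 2.64 ± 0.14 (SE; adjusted p = 7.23e-08, edgeR). *Cdkn1a* (p21) rose from 17.9, 19.2 and 17.2 to 85.0, 101 and 89.3 CPM, a log2 fold change of 2.34 ± 0.18 (SE; adjusted p = 1.47e-06, edgeR). All 3 were higher in every differentiated library. *Ccnd2*, *Ccnd3*, *Ccne1* and the transcription factors *E2f1* and *E2f3* rose by 1.70, 2.15, 2.19, 0.99 and 1.47. *Cdk2*, the kinase of S phase entry, fell from 48.7, 31.4 and 30.7 to 9.43, 11.6 and 14.9 CPM, a log2 fold change of -1.62 ± 0.23 (SE; adjusted p = 0.000155, edgeR), *Cdkn2a* and *Cdkn2b* changed by -0.74 and -1.12, and *Cdk4* was not called. *Cdkn1c* was called higher, and its change went from 0.92 to 0.58 without differentiated replicate 2 (edgeR adjusted p = 0.021). *Cdk6* was called higher, at 0.73, but not without undifferentiated replicate 1, undifferentiated replicate 2 or differentiated replicate 3; without the last its change was 0.40 (edgeR adjusted p = 0.191). Of 18 genes of G1 control 11 rose and 3 fell, against 31.7% and 27.9% of all tested genes.

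**Figure D5:**
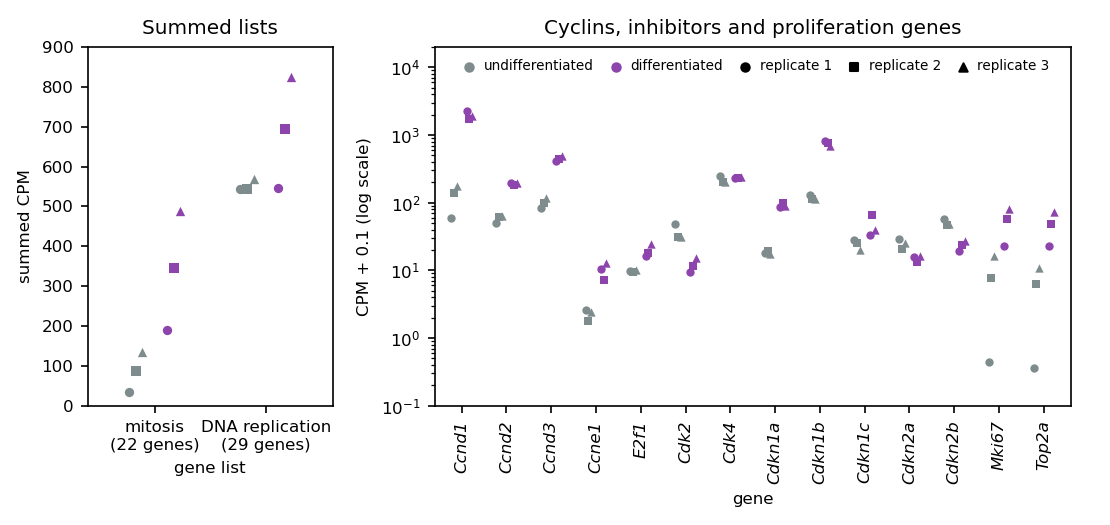
Left, summed CPM of the mitosis and DNA replication lists in each library; right, CPM plus 0.1 on a log axis for 14 cyclins, inhibitors and proliferation genes, with colour for stage and marker shape for replicate. The mitosis sum spans 34.6 to 135 CPM in undifferentiated and 189 to 489 CPM in differentiated libraries, and Ccnd1, Cdkn1a and Cdkn1b lie higher in all differentiated libraries.

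Myelin is rich in lipids, and genes of lipid synthesis mostly rose where they were called. Of 22 fatty acid and sphingolipid genes, 13 rose and 2 fell, against 31.7% and 27.9% of all tested genes, with a median of 0.74. *Scd2*, a stearoyl-CoA desaturase, rose from 3567, 1757 and 1931 to 8426, 6559.9 and 7340.4 CPM, a log2 fold change of 1.62 ± 0.24 (SE; adjusted p = 0.00018, edgeR); part of its counts were fractional. *Fasn*, the fatty acid synthase, rose from 592, 342 and 369.8 to 1087, 950.3 and 1011 CPM, a log2 fold change of 1.23 ± 0.18 (SE; adjusted p = 0.00014, edgeR). *Elovl6* and *Elovl1*, which elongate fatty acids, rose by 1.98 and 1.44, and *Elovl7* was at 0 in undifferentiated libraries and at 9.50, 8.21 and 7.20 CPM afterwards, at least 33.4-fold higher. *Sgms1*, a sphingomyelin synthase, rose from 38.0, 48.4 and 45.7 to 285, 284 and 317 CPM, a log2 fold change of 2.75 ± 0.10 (SE; adjusted p = 9.55e-09, edgeR). *Gal3st1*, which makes the myelin lipid sulfatide, rose by 2.42 (edgeR adjusted p = 3.63e-07). *Ugcg*, the enzyme that commits ceramide to glucosylceramide, fell from 53.9, 58.6 and 49.4 to 21.3, 22.4 and 23.5 CPM, a log2 fold change of -1.27 ± 0.10 (SE; adjusted p = 1.32e-06, edgeR), and *Fads1* changed by -0.40.

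Of 22 sterol synthesis genes 9 rose and 0 fell, against 31.7% and 27.9% of all tested genes, with a median of 0.45. *Lss*, lanosterol synthase, rose from 53.5, 37.6 and 40.3 to 145, 98.6 and 117 CPM, a log2 fold change of 1.46 ± 0.17 (SE; adjusted p = 2.82e-05, edgeR). Undifferentiated replicate 1 was the highest of its stage for *Lss*, as it was for the summed list at 3215 CPM against 1872 and 2137 CPM. Without it 16 of the genes were called higher, and without differentiated replicate 2 it was 14; over the 6 fits that leave out 1 library the count ran from 6 to 16. With the replicate number as a block 12 rose and 1 fell, among the former *Hmgcs1*, an enzyme of the pathway's first steps, at a log2 change of 0.60 (edgeR adjusted p = 0.00302).

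Collagen, laminin and other matrix genes moved in both directions. Of 16 genes tested 5 rose and 6 fell, against 31.7% and 27.9% of all tested genes, with a median of 0.10 that ran from 0.01 to 0.74 over the alternatives. *Col1a1*, a fibrillar collagen chain, fell from 20711, 16148 and 16041 to 7148, 5206 and 7406 CPM, a log2 fold change of -1.42 ± 0.17 (SE; adjusted p = 4.53e-05, edgeR). *Col5a2* fell from 4918, 5219 and 5008 to 1100.3, 1186 and 1444 CPM, a log2 fold change of -2.02 ± 0.11 (SE; adjusted p = 1.51e-07, edgeR). *Agrn*, the proteoglycan agrin, fell from 1777, 2249 and 2274 to 212, 209 and 238 CPM, a log2 fold change of -3.26 ± 0.12 (SE; adjusted p = 8.28e-09, edgeR). Every differentiated library was below every undifferentiated one for these 3. *Col1a1* is also the fibroblast marker that made up nearly all of the fibroblast sum, which went from 16045 to 20714 CPM down to 5210 to 7409 CPM, while *Pdgfra* and *Dcn* stayed under 1 CPM in every library. *Lamc1*, a laminin chain of the Schwann cell basal lamina, rose from 1212, 1386 and 1491 to 2751, 2927 and 3646 CPM, a log2 fold change of 1.19 ± 0.12 (SE; adjusted p = 1.26e-05, edgeR). *Nid2*, which links laminin to collagen, rose from 439, 346 and 358 to 1567, 1170.1 and 1286 CPM, a log2 fold change of 1.82 ± 0.15 (SE; adjusted p = 2.26e-06, edgeR). *Lama4* and *Col5a3* rose by 0.94 and 0.96, and *Lamb2* changed by -1.25. *Col3a1* was called higher with all libraries but not in 5 of the 6 fits without 1, for example without differentiated replicate 1 (log2 change 0.69 against 0.72; edgeR adjusted p = 0.089), nor with DESeq2's size factors as the scaling. Fibronectin, *Fn1*, measured 126, 665 and 719 and 727, 832 and 1245 CPM and was called with the replicate block but not without it (edgeR adjusted p = 0.133 without it and 0.0269 with it).

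Among the receptors for matrix, *Dmd*, dystrophin, rose from 13.9, 14.9 and 15.4 to 189.6, 156 and 168 CPM, a log2 fold change of 3.53 ± 0.17 (SE; adjusted p = 4.86e-08, edgeR), with some fractional counts. *Dag1*, dystroglycan, rose from 1876, 1522 and 1537 to 3662, 2796 and 3107 CPM, a log2 fold change of 0.95 ± 0.13 (SE; adjusted p = 0.00012, edgeR). *Itga1*, a collagen-binding integrin, fell from 97.1, 166 and 193 to 27.8, 31.7 and 34.2 CPM, a log2 fold change of -2.28 ± 0.22 (SE; adjusted p = 7.6e-06, edgeR). *Itga6*, the laminin-binding integrin of myelinating cells, rose by 0.49, *Itgb4* by 0.89, *Itga4* by 1.44 and *Itgb3* by 1.80, and *Itgb1* and *Itga5* changed by -0.43 and -0.92. *Utrn* and *Itga7* were not called.

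Cadherins and other adhesion molecules moved in opposite directions. *Cdh1*, E-cadherin of the autotypic junctions of myelin, rose from 0.170, 0.790 and 0.196 to 130.0, 102 and 113 CPM, a log2 fold change of 8.32 ± 0.43 (SE; adjusted p = 7.34e-08, edgeR). *Cdh2*, N-cadherin, fell from 313, 363 and 369 to 80.6, 119.7 and 143 CPM, a log2 fold change of -1.60 ± 0.24 (SE; adjusted p = 0.000206, edgeR). *Cadm1* fell from 547, 504 and 525 to 63.7, 48.9 and 52.0 CPM, a log2 fold change of -3.26 ± 0.11 (SE; adjusted p = 5.83e-09, edgeR). Undifferentiated libraries held under 1 CPM of *Cdh1*, and without undifferentiated replicate 2 its change was 9.18. *Cadm2* and *Cdh19* changed by -3.59 and -2.34, and the junction genes *Jam3* and *Tjp1* rose by 1.78 and 0.72 (edgeR adjusted p of 2.94e-08 and 0.000342). Of 21 genes 11 rose and 8 fell, and 7 rose where at least 10 counts were required in every library.

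Genes of contractile actin and of the mechanosensitive coactivators YAP and TAZ mostly fell. Of 14 actin and serum response factor genes, 9 fell and 2 rose, with a median of -0.69. Of 18 YAP/TAZ genes 12 fell and 2 rose, with a median of -1.11. Over all tested genes 27.9% fell and 31.7% rose. *Zyx*, a focal adhesion protein, fell from 679, 733 and 641 to 104, 117 and 125 CPM, a log2 fold change of -2.57 ± 0.10 (SE; adjusted p = 9.06e-09, edgeR). *Flna*, filamin A, fell from 3724, 3379 and 3507 to 927, 1123 and 1278 CPM, a log2 fold change of -1.67 ± 0.12 (SE; adjusted p = 8.13e-07, edgeR). *Axl*, a receptor tyrosine kinase, fell from 382, 499.5 and 530.1 to 69.7, 84.5 and 108 CPM, a log2 fold change of -2.43 ± 0.18 (SE; adjusted p = 8.51e-07, edgeR). The stages did not overlap for these genes. *Actn1* and *Vcl*, which also belong to focal adhesions, rose by 1.68 and 0.83 (edgeR adjusted p of 5.78e-05 and 0.000106). *Yap1* itself changed by -0.96 while *Wwtr1* (TAZ) rose by 0.41 and *Tead1*, their DNA-binding partner, by 0.82. The common reporter *Ctgf* measured 349, 1408 and 983 and 479, 703 and 932 CPM and was not called, except lower without undifferentiated replicate 1 (log2 change -0.76; edgeR adjusted p = 0.0157). *Cyr61* was called lower, at -1.12, but not without undifferentiated replicate 2, differentiated replicate 1 or differentiated replicate 3; without the first its change was -0.63 (edgeR adjusted p = 0.125).

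Genes of the Notch pathway moved in both directions. *Heyl*, a repressor induced by Notch, fell from 87.5, 61.4 and 56.4 to 0.0737, 0 and 0.120 CPM, a ratio of 980.2-fold (counting interval 335 to 4756). *Hey2* fell from 9.34, 12.2 and 8.62 to 1.18, 0.678 and 0.780 CPM, a log2 fold change of -3.50 ± 0.39 (SE; adjusted p = 2.03e-05, edgeR), and *Hey1* rose from 2.80, 1.68 and 2.42 to 9.73, 6.70 and 7.38 CPM, a log2 fold change of 1.77 ± 0.24 (SE; adjusted p = 0.000109, edgeR). *Lfng*, a glycosyltransferase that modifies Notch, changed by -2.19, the ligand *Jag1* by -1.06, and the receptors *Notch1* and *Notch3* rose by 0.67 and 1.61. *Hes1*, another effector, was not called. Of 10 tested, 3 rose and 5 fell, and 2 fell where at least 10 counts were required in every library.

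Binding proteins of the insulin-like growth factors moved in both directions. *Igfbp7* fell from 5943, 4543 and 3975 to 83.4, 60.1 and 70.2 CPM, a log2 fold change of -6.08 ± 0.21 (SE; adjusted p = 5.68e-09, edgeR). *Igfbp5* fell from 367, 288 and 320.5 to 106, 81.0 and 77.7 CPM, a log2 fold change of -1.89 ± 0.16 (SE; adjusted p = 2.64e-06, edgeR). *Igfbp4* rose from 0.170, 0.592 and 0.326 to 9.95, 12.8 and 8.88 CPM, a log2 fold change of 4.87 ± 0.38 (SE; adjusted p = 1.6e-06, edgeR). *Pappa*, the protease that cleaves Igfbp4, moved opposite to its substrate, by -5.73 in log2 (edgeR adjusted p = 5.11e-10). *Igfbp3* changed by -2.60, *Igf2r* rose by 1.34, and the receptor *Igf1r* was not called. Of 8 tested members 3 rose and 4 fell.

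Secreted cytokines went in both directions, 3 higher and 6 lower of 12 tested. *Il34*, a ligand of the macrophage receptor Csf1r, had 1 count in all undifferentiated libraries together and then measured 77.6, 43.5 and 46.5 CPM, a ratio of 2059-fold (counting interval 369 to 81344). *Csf1*, the other ligand of that receptor, fell from 123, 88.5 and 98.6 to 50.6, 32.5 and 58.8 CPM, a log2 fold change of -1.12 ± 0.19 (SE; adjusted p = 0.000419, edgeR). *Ccl2*, which attracts monocytes, rose from 0.764, 2.96 and 1.37 to 23.1, 41.4 and 30.1 CPM, a log2 fold change of 4.25 ± 0.39 (SE; adjusted p = 4.69e-06, edgeR). *Cxcl12*, a chemokine, fell from 216, 241 and 228 to 25.2, 8.43 and 13.8 CPM, a log2 fold change of -3.85 ± 0.31 (SE; adjusted p = 1.98e-06, edgeR), with some fractional counts. *Tgfb1* and *Tgfb2* changed by -2.24 and -2.17 (edgeR adjusted p of 1.33e-06 and 8e-06). Macrophage markers summed to 0.340 to 1.63 CPM in undifferentiated and 3.54 to 5.05 CPM in differentiated libraries, mainly *Cd68*. *Csf1r* itself was at 0 in undifferentiated libraries and at 0.295, 0.828 and 0.961 CPM in differentiated ones, called higher (edgeR adjusted p = 0.00231), and *Aif1*, *C1qa*, *C1qb* and *Adgre1* were at 0; their part in these changes was not tested. Of 13 interferon and antigen presentation genes 3 rose and 3 fell, among them *Irf7*, which changed by 2.02, and *Ifit2*, which changed by -2.65 (edgeR adjusted p of 0.00108 and 1.84e-05).

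Genes of energy metabolism moved in both directions. Of 31 nuclear genes of the respiratory chain 16 rose and 4 fell, against 31.7% and 27.9% of all tested genes. The median of the list was 0.25. The count that rose was 11 to 15 without any 1 library and 13 to 20 over other scalings. *Cycs*, cytochrome c, rose from 90.4, 77.9 and 69.9 to 135, 132 and 126 CPM, a log2 fold change of 0.73 ± 0.09 (SE; adjusted p = 6.71e-05, edgeR). *Cox5b* fell from 214, 188 and 175 to 89.6, 74.4 and 70.2 CPM, a log2 fold change of -1.30 ± 0.12 (SE; adjusted p = 4.82e-06, edgeR), while *Cox5a*, another subunit of complex IV, rose by 0.60. Of 19 glycolysis and lactate genes 9 rose and 2 fell, against the same shares of all tested genes. *Pfkm*, a phosphofructokinase, rose from 16.0, 15.6 and 15.2 to 107, 102 and 107 CPM, a log2 fold change of 2.75 ± 0.13 (SE; adjusted p = 5.3e-08, edgeR). *Ldhb*, which favours the conversion of lactate to pyruvate, rose from 66.7, 71.6 and 73.0 to 292, 279.7 and 251 CPM, a log2 fold change of 1.96 ± 0.08 (SE; adjusted p = 1.63e-08, edgeR). *Slc16a1*, the lactate transporter MCT1, rose by 1.82 (edgeR adjusted p = 7.42e-07). *Pkm* and *Hk1* changed by -0.41 and -0.31 (edgeR adjusted p of 0.00937 and 0.00562).

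Of 81 cytosolic ribosomal protein genes 39 rose and 0 fell, against 31.7% and 27.9% of all tested genes, with a median of 0.28. The count was 25 without undifferentiated replicate 3, 26 without undifferentiated replicate 2, 30 to 38 without any 1 of the others and 34 to 48 over other scalings. Ribosomal protein genes have many near-identical pseudogenes, which makes their counts uncertain, and 6 of them had fractional counts. Of 20 chaperone and endoplasmic reticulum stress genes 7 fell and 2 rose, against 27.9% and 31.7% of all tested genes, and 4 fell without differentiated replicate 2. *Xbp1*, a transcription factor of the unfolded protein response, fell from 209, 181 and 174 to 96.6, 91.4 and 94.5 CPM (edgeR adjusted p = 2.53e-06). Of 25 lysosomal genes 11 rose and 5 fell, against 31.7% and 27.9% of all tested genes. The cholesterol exporters of the lysosome moved apart, with *Npc1* up from 89.6, 71.9 and 75.5 to 197, 189 and 188 CPM, a log2 fold change of 1.28 ± 0.15 (SE; adjusted p = 3.11e-05, edgeR), and *Npc2* down from 317, 324 and 290.4 to 144, 125 and 129 CPM, a log2 fold change of -1.23 ± 0.09 (SE; adjusted p = 1.27e-06, edgeR).

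A small set of genes went between the detection floor and clear expression. Under 3 counts in every undifferentiated library and at least 10 CPM in every differentiated one were 10 genes: *Sparcl1*, *Slc9a3*, *Emid1*, *Il34*, *Gjb1*, *Rasef*, *Ephb1*, *Fgf1*, *Drp2* and *Tyrp1*. *Sparcl1*, a secreted matricellular protein, measured 0, 0.0987 and 0.0653 and 358, 522 and 328 CPM, a ratio of 7382-fold (counting interval 2043 to 60959). *Slc9a3*, a sodium-proton exchanger, measured 279, 111 and 144 CPM in differentiated libraries, a ratio of 2186-fold (counting interval 748 to 10604). *Fgf1*, a fibroblast growth factor, was at 0 in all undifferentiated libraries and then at 27.2, 22.8 and 27.1 CPM, at least 103-fold higher against the floor of 3 counts per library. Differentiated libraries lay close together for *Fgf1* and spread more for *Slc9a3*. *Tyrp1*, an enzyme of melanin synthesis, went from 0 to 33.8, 22.1 and 12.8 CPM, at least 92.1-fold higher, while *Mitf*, the melanocyte lineage factor, was not called, *Kit* changed by -1.07 (edgeR adjusted p = 0.00698) and *Mlana* was at 0 in all libraries. Melanocyte markers summed to 19.7 to 26.3 CPM in undifferentiated and 29.7 to 50.8 CPM in differentiated libraries, and their part in the results was not tested. *Ibsp*, a bone sialoprotein, was already detected before treatment and rose from 0.764, 0.987 and 0.587 to 1043, 1619 and 920.4 CPM, a log2 fold change of 10.61 ± 0.30 (SE; adjusted p = 2.86e-09, edgeR).

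In the other direction 5 genes fell from at least 10 CPM to under 3 counts in every library: *Heyl*, *Ptprt*, *Bmp3*, *Chrdl2* and *Lmod2*. *Ptprt*, a receptor tyrosine phosphatase, measured 51.9, 67.4 and 83.9 CPM in undifferentiated libraries and 1 count in all differentiated libraries together, a ratio of 3014-fold (counting interval 541 to 119100.0). *Chrdl2*, a BMP-binding protein, went from 14.1, 21.0 and 15.7 CPM to 0, at least 81.1-fold lower, and for *Bmp3* the ratio was 884-fold (counting interval 158 to 34945). *Fgf5* fell from 232, 179 and 144 to 0.589, 1.20 and 0 CPM, a log2 fold change of -8.35 ± 0.42 (SE; adjusted p = 6.61e-08, edgeR), or -9.38 without differentiated replicate 2 and -7.67 without differentiated replicate 3. *Gpx3*, a secreted glutathione peroxidase, fell from 568, 350.4 and 300.4 to 2.87, 1.58 and 1.80 CPM, a log2 fold change of -7.61 ± 0.40 (SE; adjusted p = 8.4e-08, edgeR). *Pcdh20*, a protocadherin, fell from 427, 409 and 362 to 2.21, 1.81 and 1.20 CPM, a log2 fold change of -7.86 ± 0.25 (SE; adjusted p = 3.64e-09, edgeR). The last 3 genes were under 3 CPM in every differentiated library. The counts of genes depend on the rule: with under 3 counts in 2 of the 3 libraries 26 rose and 8 fell, and with at least 5 CPM it was 17 and 7.

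By difference in mean CPM, *Scd2*, *Prx*, *Mbp* and *Eef1a1* were among the 5 that gained most, and *Col1a1*, *Igfbp7*, *Tnc*, *Serpine2* and *Col5a2* lost most. *Serpine2*, an inhibitor of thrombin and plasminogen activators, fell from 4016, 4121 and 3885 to 91.5, 60.2 and 65.7 CPM, a log2 fold change of -5.79 ± 0.17 (SE; adjusted p = 2.88e-09, edgeR). *Eef1a1*, a translation elongation factor, measured 11429, 10767 and 10225 and 13354, 13396 and 13589.7 CPM, a log2 fold change of 0.32 ± 0.11 (SE; adjusted p = 0.032, edgeR), and lost its call in 5 of the 6 fits without 1 library, for example without undifferentiated replicate 2 (edgeR adjusted p = 0.129). The 5 genes that lost most encode secreted proteins.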

How the data were processed

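Cell mRNA was measured by sequencing in 9 libraries, 3 per stage, of which the 6 undifferentiated and differentiated ones are compared; the microRNA and long noncoding RNA tables were not used here. The authors deposited expected counts (estimated counts per gene, not normalized) made with their own pipeline; Salmon, STAR, HISAT2 and DESeq2 1.26.0 are among the tools named, per the submitters' processing notes. Their roles, the genome build and the annotation are not given in the sources used here. Fractional values, 1.15% of those deposited, were rounded. The library kit keeps strand, per the labels' protocols, but whether counting used it is not given, so antisense partners may not be told apart.

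From 17315 genes, filterByExpr (minimum count 10) kept 10372. A quasi-likelihood fit in edgeR 4.0.16 (limma 3.58.1, R 4.3.3) used TMM scaling and all 9 libraries, which share 1 estimate of spread with 6 residual degrees of freedom. Genes with a Benjamini-Hochberg adjusted p under 0.05 were called. CPM values are scaled by TMM; CPM carry no gene length, so levels are compared within genes. On simulated counts (10372 genes, 200 changed, 3 draws) 84% of genes changed 2-fold and 97.7% of those changed 4-fold were called, and 5.87% of calls were false. The simulated counts held no effect of replicate or sequencing project. Far fewer genes were changed in them than were called here, so these rates do not describe the calls above. The members of the comparison and the gene lists were chosen with earlier results of these data known. Text genes were named by rule: up to 12 called genes of largest change in each direction, with at least 10 CPM in the higher stage and no overlap; the 5 of largest CPM difference in each direction; up to 5 of each list per direction by p, with the members not called; and any member of the myelin, regulator, repair, cyclic AMP response, phosphodiesterase, G1, ErbB, adhesion and marker lists. Some genes that these rules cover are not reported here. Further genes of the other lists were added after their values were seen. Deviations of libraries with the same replicate number in the titles correlated at 0.304, 0.234 and 0.269, and those with different numbers at -0.232 to 0.035. The labels do not say that the same number means a shared culture, and the main fit has no block. A fit with the replicate number as a block is an alternative, beside other scalings, filters, DESeq2 1.42.0, the 6 libraries alone, the sequencing project as a covariate and leaving out each library. Names matched RefSeq for 14810 of 17315 genes (85.5%), and promoters of 300 bases (250 before the start, 50 after) for 8115 of 10372 tested genes.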

Additional observations from a re-analysis of the deposited data

How the results depend on the processing

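Between 5464 and 6325 genes were called over the 15 alternatives, 49.9% to 58.5% of them higher, and every gene called both with all libraries and under an alternative kept its direction. Of 395 called genes that the naming rules cover, 314 were tested under every alternative, and 264 of these were called in all of them; 334 lost no call where they were tested. The replicate block gave 6325 called genes, 6075 of them shared; of the named genes it ended 2 calls and added 25, and for the genes in the text those are given beside the result. It moved no count of 2 or more in a list by over 1.5 times; 2 perineurial markers were called higher in place of 1, and 1 sterol synthesis and 1 ribosomal protein gene lower in place of 0. With at least 10 counts in every library, 8 myelin, 8 DNA replication, 7 mitosis and 7 adhesion genes were called higher and 2 Notch genes lower, because genes near absent in 1 stage were not tested. Leaving out each library in turn gave 6 to 16 sterol synthesis genes higher, 3 to 4 repair genes higher, 5 to 7 immediate early genes higher, 25 to 38 ribosomal protein genes higher and 4 to 6 chaperone genes lower; the cause was not tested. Genes that went from under 3 counts to clear expression numbered 26, and 8 in the other direction, with under 3 counts in 2 of the 3 libraries, and 17 with at least 5 CPM. The shorter motif TGACG on either strand lay in 33.9% of promoters of genes called higher, 30.8% of those called lower and 35.3% of those not called. TGACGTCA lay in 4.10%, 2.69% and 3.55% of the same groups. Over all tested genes with a promoter the shares were 33.6% for TGACG and 3.49% for TGACGTCA. A promoter was found for only 78.2% of tested genes, so these shares are a description and no difference between groups is read from them. *Btg2*, an immediate early gene that was not called (log2 change 0.83; edgeR adjusted p = 0.359), ran from -1.11, without differentiated replicate 2 (edgeR adjusted p = 0.0199), to 1.30, without differentiated replicate 1. Other scalings moved the median of all genes by -0.04 to 0.06 in log2. Genes under 3 counts in a stage, 0.185 to 0.288 CPM, cannot be ranked by fold.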

Other observations

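Families of secreted ligands and their receptors that no list above covers also moved in both directions; they were chosen after their values were seen, and their values without 1 library are given where they moved by over 1.5 times or where undifferentiated replicate 1 is named. Fibroblast growth factors changed at both ends. *Fgf1* and *Fgf5* are described above, and *Fgf2* went from 0.679, 1.88 and 0.914 to 8.55, 5.35 and 6.42 CPM, a log2 fold change of 2.58 ± 0.36 (SE; adjusted p = 0.000122, edgeR). Among the receptors, *Fgfr1* measured 19.4, 39.6 and 38.8 and 114, 172 and 177 CPM, a log2 fold change of 2.24 ± 0.27 (SE; adjusted p = 3.9e-05, edgeR). *Fgfr2* measured 62.4, 27.4 and 22.5 and 0.368, 0.301 and 0.240 CPM, a log2 fold change of -6.92 ± 0.68 (SE; adjusted p = 9.06e-06, edgeR), and *Fgfr3* rose by 1.44. The stages did not overlap for these receptors. All 4 ligands and 4 receptors that were tested were called, 6 higher and 2 lower, against 31.7% and 27.9% of all tested genes. Of 6 Wnt ligands tested 4 rose and 1 fell, against the same shares. *Wnt6* went from 1.44, 1.48 and 0.979 to 24.1, 25.8 and 25.9 CPM, a log2 fold change of 4.30 ± 0.29 (SE; adjusted p = 4.73e-07, edgeR), and *Wnt11* and *Wnt5a* rose by 4.72 and 4.44 to under 10 CPM. Without undifferentiated replicate 1 *Wnt11* changed by 5.54. *Wnt10b* went from 6.45, 5.53 and 6.66 CPM to 1 count in all differentiated libraries together, a ratio of 273-fold (counting interval 48.6 to 10848).

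Guidance molecules gave a similar picture. Of 18 semaphorins tested 9 rose and 6 fell. This count and those that follow are read beside 31.7% higher and 27.9% lower over all tested genes. *Sema3e* fell from 464, 404 and 399 to 5.67, 5.05 and 4.62 CPM, a log2 fold change of -6.37 ± 0.19 (SE; adjusted p = 2.88e-09, edgeR). *Sema3g* rose from 18.8, 83.6 and 101 to 784, 918 and 912 CPM, a log2 fold change of 3.68 ± 0.52 (SE; adjusted p = 0.000128, edgeR), with undifferentiated replicate 1 the lowest library and a change of 3.24 without it. *Sema7a* rose by 2.16 and *Sema4f* changed by -3.70 (edgeR adjusted p of 1.58e-08 and 2.3e-07). Of 8 Eph receptors tested 4 rose and 2 fell, and *Ephb1* went from 2 counts in all undifferentiated libraries together to 39.3, 25.5 and 30.2 CPM, a ratio of 589-fold (counting interval 163 to 4866), while *Ephb2* was not called (log2 change 0.01). Of 8 serpins, protease inhibitors, 4 fell and 0 rose, including the collagen chaperone *Serpinh1* at -1.09 (log2; edgeR adjusted p = 1.99e-06). Of 7 voltage-gated potassium channels 5 rose and 2 fell; the stages of *Kcnd3* lay apart, at 90.3, 97.0 and 90.9 CPM before and 7.96, 6.78 and 9.79 CPM after, a log2 fold change of -3.49 ± 0.21 (SE; adjusted p = 2.08e-07, edgeR). Those that rose stayed under 8 CPM in every library.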
